A study of Schizosaccharomyces pombe with 12 samples.

Results

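Diploid *S. pombe* treated with methyl methanesulfonate (MMS) were compared with haploids given the same treatment, to ask how ploidy alters gene expression while DNA is being damaged. The comparison holds 6 of the 12 libraries of the series, 3 of diploid MMS and 3 of haploid MMS, chosen by their labels. Each MMS library came from cells kept in 0.0075% MMS for 4 h, and the other 6 libraries are of the same strains without treatment (NT). The haploid was of mating type h- *smt-0* and carried *ura4-D18*, *his3D-1*, *leu1-32* and *ade6-M210*. The diploid was h- *smt-0*/h- *smt-0*, homozygous for *ura4-D18*, *his3D-1* and *leu1-32* and *ade6-M210*/*ade6-M216*. It was made by protoplast fusion of haploids that differed only at *ade6+*. Each ploidy was therefore represented by 1 strain, and a difference between the strains that is not due to ploidy cannot be told apart from ploidy. Both were grown in rich medium, the same number of cells was harvested for each sample, and the replicates were described as biological.

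MMS methylates DNA bases, and the lesions block replication forks, which activates the DNA replication checkpoint. In fission yeast that checkpoint keeps the transcription factor MBF active, so that genes of the G1/S transition stay expressed. MBF targets include *cdc22+*, the large subunit of ribonucleotide reductase, and the replication licensing genes *cdc18+* and *cdt1+*. A second, genome-wide effect of ploidy is on cell size: diploid cells are larger and contain more RNA, so a gene's share of the mRNA and its amount per cell are different quantities. Both are given here.

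Total counts ran from 18079041 to 26493886 in the 6 MMS libraries, and 4584 of the 4857 genes in the table passed the filter on low counts. Expression is given as CPM (counts in each 1000000 of the library, by TMM-normalized size), which sets the typical gene to no change, so a log2FC is a change in the gene's share of the mRNA. The log2FC, its SE and the adjusted p came from edgeR's quasi-likelihood test over all genes. DEGs were genes whose adjusted p was under 0.05 and whose log2FC was above 0.58 or below -0.58. The strain labels could be checked only in part, and no marker here tells a haploid library from a diploid one. Counts of *ura4+*, deleted in both strains, were 0 in all 12 libraries, and those of *his3+*, also deleted, were between 1 and 10. All 8 M-cell markers were detected in both ploidies, with summed CPM of 564 to 575 in haploid MMS and 499.9 to 541 in diploid MMS. The 5 P-cell markers were detected as well, with summed CPM of 1723 to 1772 and of 1586 to 1762. Most of that was *sxa1+*, at up to 1619 CPM, so their total did not separate the mating types. *ade6+* and *leu1+*, which carry point mutations here, were not called (log2FC -0.02 and 0.24).

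Before the genes themselves, 2 of the 6 libraries stood apart from their replicates. Diploid MMS 3 lay at -11.5 on the first principal component, within the range of the diploid NT libraries (-15.0 to -11.2), whereas diploid MMS 1 and diploid MMS 2 lay at 6.41 and 4.49. Haploid MMS 1 lay at -19.7 on the second component, as did haploid NT 1 (-19.8), while the 10 other libraries lay between -7.55 and 8.07. The SD over genes of the log2 difference between diploid MMS 3 and its replicates was 0.444 and 0.487, against 0.196 between diploid MMS 1 and diploid MMS 2. For haploid MMS 1 these values were 0.412 and 0.414, against 0.144. The DEGs no longer called without both of these libraries are named below. So are the genes under the fold threshold that then no longer passed. List medians without either or both of them are given for some of the lists.

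**Figure D1:**
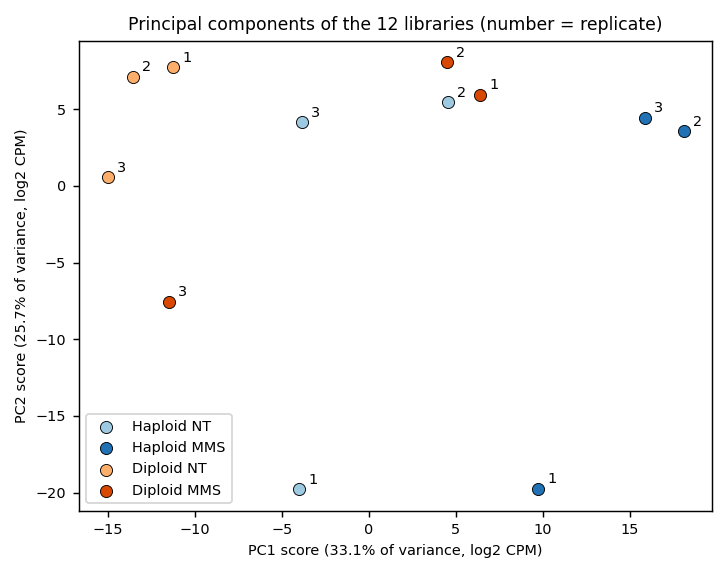
Scores of the 12 libraries on the first component (x axis, 33.1% of the variance) and the second (y axis, 25.7%) of log2 CPM, coloured by condition and numbered by replicate. On the first component diploid MMS 3 sits at -11.5, within the range of the diploid NT libraries. On the second it sits at -7.55, below their 0.558 to 7.74. Haploid MMS 1 sits at -19.7 on the second component, near haploid NT 1 (-19.8).

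Per cell, diploids in MMS held more mRNA than haploids in MMS. ERCC spike-ins, synthetic RNAs added in equal volume to RNA from equal numbers of cells, took 3.78%, 4.24% and 4.14% of the counts in haploid MMS 1, 2 and 3. In diploid MMS 1, 2 and 3 they took 1.59%, 1.68% and 1.33%. A smaller spike-in share corresponds to more cellular mRNA, and the groups did not overlap. After division by the spike-in factor, and with the haploid MMS mean set to 1, the *S. pombe* counts were 1.05, 0.976 and 0.971 in haploids and 2.54, 2.44 and 3.04 in diploids. The ratio of the means was 2.67 ± 0.341 (SD carried over from both groups, n = 3). A two-sided exact permutation test gave p = 0.1, the smallest that 3 against 3 libraries allow. Diploid MMS 3 had the highest value, and without it the ratio was 2.49. The spike-ins were added after RNA extraction, so a difference in extraction yield between ploidies would be part of this ratio and was not tested. With the haploid MMS mean again set to 1, haploid NT 1, 2 and 3 were at 2.12, 1.06 and 1.18. Diploid NT 1, 2 and 3 were at 2.84, 2.82 and 2.48.

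**Figure D2:**
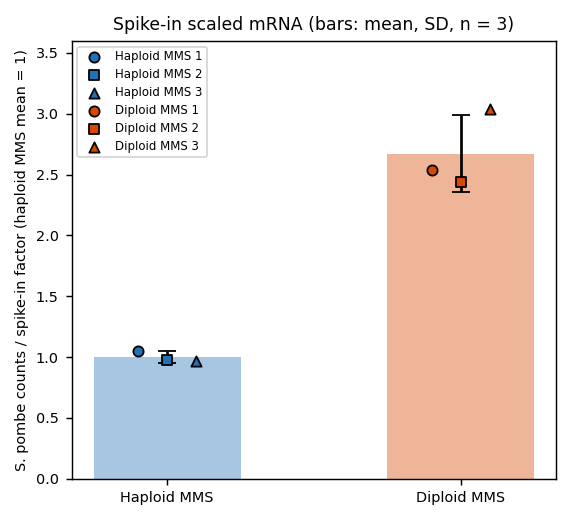
Counts of *S. pombe* genes over the spike-in factor in each MMS library (y axis, mean of haploid MMS set to 1), with bars for the mean and SD of 3 libraries and a point per library. The diploid libraries lie between 2.44 and 3.04 and the haploid libraries between 0.971 and 1.05.

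The per-cell increase extended over the genome. Scaled by spike-ins, the median gene had a log2FC of 1.44, a ratio of 2.72, and from the 5th to the 95th percentile the ratio ran from 2.13 to 3.87. All 4584 genes had a ratio above 1, and 129 of them (2.81%) were below 2. The median ratio was 2.72 on chromosome I, 2.74 on chromosome II and 2.67 on chromosome III. On the share scale the chromosome medians were log2FC 0.01, 0.03 and -0.01, so with all libraries no chromosome median was more than 0.03 from 0. Without diploid MMS 3 they were 0.00, 0.01 and -0.02. In diploid MMS 3 alone, the medians relative to the haploid MMS mean were -0.01, -0.01 and -0.08 on chromosomes I, II and III. On chromosome III diploid MMS 1 and 2 were at -0.02 and -0.03. A single set of libraries and spike-ins stands behind all of these ratios, so the number of genes adds no replicates.

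As a share of the mRNA few genes differed. edgeR called 14 genes up in diploid MMS (0.305% of the genes tested) and 11 down (0.24%). At 2-fold, 6 were up and 1 was down. At an adjusted p under 0.05 with no fold threshold, 22 were up (0.48%) and 16 down (0.349%), and 660 genes had an unadjusted p under 0.05. The 5th and 95th percentiles of the log2FC over all genes were -0.33 and 0.48. In each of the 25 DEGs the diploid and haploid MMS libraries did not overlap, as was so for 19.7% of all genes tested. Among the genes called up were those of a urea transporter, a peptide transporter, an amino acid permease, a zinc importer, malic enzyme and the chaperone Hsp90. Among those called down were *ctp1+* of DNA end resection, *cut12+* of the spindle pole body and the adhesin gene *mam3+*.

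These calls rest on few libraries. DESeq2 called 41 up and 27 down, and these held all 25 of the edgeR DEGs. edgeR called 1 up and 1 down without diploid MMS 2, and again 1 and 1 without haploid MMS 2. It called 4 and 4 without haploid MMS 1, 6 and 4 without haploid MMS 3, and 11 and 4 without both diploid MMS 3 and haploid MMS 1. Without both, 15 of the 25 DEGs were no longer called, all in the same direction as before. Of those up, the edgeR adjusted p was then 0.1095 for SPBPB8B6.02c, 0.149 for *pfl7+*, 0.0661 for SPCC569.02c, 0.0649 for *aat1+*, 0.0776 for *hsp90+*, 0.0894 for SPAC11D3.01c and 0.0849 for SPCC569.07. Of those down, it was 0.0661 for *ctp1+* and *cut12+*, 0.0595 for SPAC1B3.15c, 0.165 for *yak3+*, 0.0649 for SPCC338.18, and 0.0849 for SPAC1783.01, SPBC30B4.09 and *mam3+*. The fit also takes its spread from the 6 NT libraries and treats all 12 as independent, although cultures were split between NT and MMS. Within a ploidy, same-numbered NT and MMS libraries deviated together from their group means (correlations of 0.441 to 0.711). For differently numbered NT and MMS libraries of a ploidy the correlations ran from -0.689 to 0.571, so the ranges overlapped. Fitted to the 6 MMS libraries alone edgeR called 0 genes (smallest adjusted p 0.0719), with 481 at an unadjusted p under 0.05 that included all 25 DEGs. Of the 25, *nce103+* and SPCC1393.12 were called whichever MMS library was left out.

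**Figure D3:**
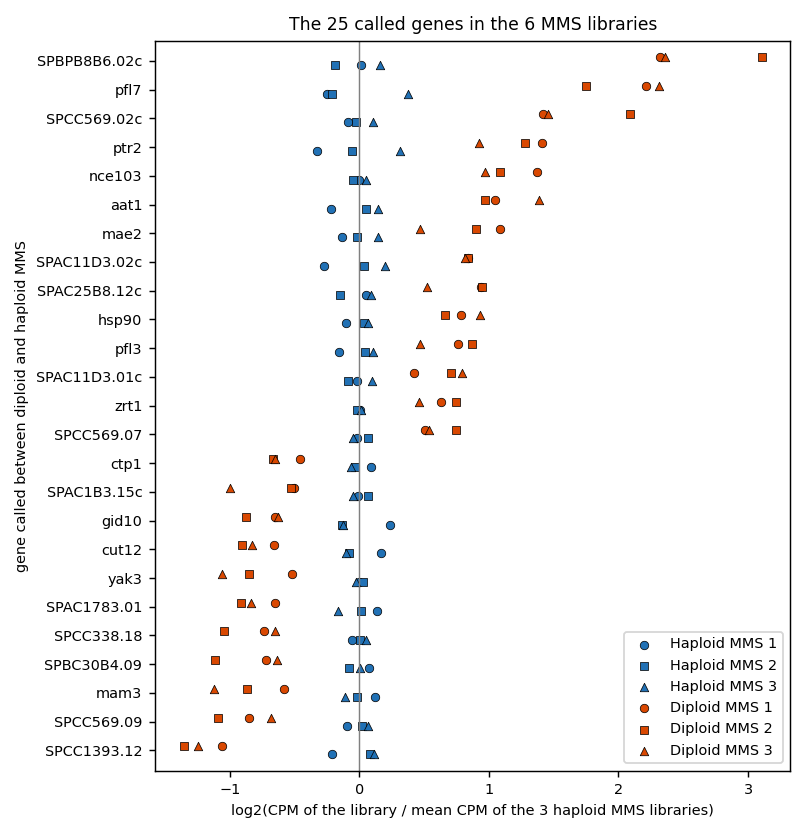
Log2 of the CPM of each of the 6 MMS libraries over the mean of the 3 haploid MMS libraries (x axis) for the 25 DEGs (y axis), with haploids in blue, diploids in orange and a symbol per replicate. In every gene shown the 3 diploid points lie to 1 side of the 3 haploid points, and SPBPB8B6.02c has the largest rise (log2FC 2.60) and SPCC1393.12 the largest fall (log2FC -1.22).

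The most secure rise was that of *nce103+* (SPBP8B7.05c, chromosome II, 3640904 to 3643081 by the deposited table), which encodes a predicted carbonic anhydrase, the enzyme that interconverts carbon dioxide and bicarbonate. Its CPM was 67.5, 65.15 and 70.2 in haploid MMS 1, 2 and 3 and 174.6, 143 and 132 in diploid MMS 1, 2 and 3. The lowest diploid value was far above the highest haploid value. The log2FC was 1.15 (SE 0.12, edgeR adjusted p = 0.00249), and the adjusted p ranged from 0.00267 to 0.0311 over the libraries left out. Per cell, its mRNA was 5.93 times as abundant in diploids.

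The most secure fall was that of SPCC1393.12, an uncharacterized gene on chromosome III from 823411 to 824429. It had a CPM of 114, 140 and 143 in haploid MMS and 63.6, 51.9 and 55.9 in diploid MMS. All 3 diploid libraries were well below the haploid libraries. The log2FC was -1.22 (SE 0.11, edgeR adjusted p = 0.0014), and the adjusted p ranged from 0.000776 to 0.0134 over the libraries left out. Scaled by spike-ins, the ratio per cell was 1.16, among the lowest of all genes. Its difference in NT was smaller (log2FC -0.58, edgeR adjusted p = 0.0136), although the interaction was not called (difference of -0.64, unadjusted p = 0.00206, edgeR adjusted p = 0.999).

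Of the transporter genes among the 25 DEGs, 4 were called up and SPAC1B3.15c, described further on, was called down. SPBPB8B6.02c, a urea transporter gene on chromosome II from 44694 to 46836, had a CPM of 0.606, 0.526 and 0.669 in haploid MMS and 3, 5.16 and 3.07 in diploid MMS. These are low counts, with diploid MMS 2 the highest and no overlap. The log2FC of 2.60 was the largest among the DEGs (SE 0.49, edgeR adjusted p = 0.0333), and it was called in 1 of the 6 fits that left out an MMS library (adjusted p up to 0.156). *ptr2+* (SPBC13A2.04c), which imports di- and tripeptides, had a CPM of 7.83, 9.42 and 12.2 in haploid MMS and 26.1, 23.8 and 18.6 in diploid MMS. Its log2FC was 1.22 (SE 0.17, edgeR adjusted p = 0.0131), called in 4 of those 6 fits. *aat1+* (SPBC359.03c), an amino acid permease gene, went from 30.8, 37.1 and 39.4 CPM to 73.7, 70.0 and 93.3 CPM. Here diploid MMS 3 was the highest, and the log2FC was 1.14 (SE 0.17, edgeR adjusted p = 0.0131). Without both diploid MMS 3 and haploid MMS 1 it was 0.91 (adjusted p = 0.0649). *zrt1+* (SPBC16D10.06), a zinc importer of the plasma membrane, had a CPM of 57.96, 56.9 and 58.1 in haploid MMS and 89.2, 96.7 and 79.4 in diploid MMS. The haploid values lay close together, and the log2FC was 0.62 (SE 0.10, edgeR adjusted p = 0.0131).

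Of 834 genes tested that are on any list, 13 passed the adjusted p upwards and 7 downwards, where 0.48% and 0.349% of all genes did so, and 0 of them did without haploid MMS 2 or without diploid MMS 2. By list, 2 of 16 amino acid and peptide transporter genes (*ptr2+* and *aat1+*) passed the adjusted p upwards and 0 downwards, with a list median log2FC of 0.12 against 0.01 over all genes. Of 21 nitrogen assimilation genes, *gln1+* rose (log2FC 0.54, edgeR adjusted p = 0.0428). *gln1+* encodes glutamine synthetase, and its CPM was 259.6, 234.7 and 253 in haploid MMS and 358, 404 and 322 in diploid MMS. Of 25 metal homeostasis genes *zrt1+* alone passed the adjusted p upwards and 0 downwards, with a median of 0.10. The log2FC of that list ran from -1.24 to 1.13. Among 8 hexose transporter genes 0 passed in either direction (median 0.08, or 0.22 without diploid MMS 3 and 0.10 without both diploid MMS 3 and haploid MMS 1).

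Cell surface genes moved in both directions. *pfl7+* (SPBC359.04c) encodes a DIPSY glycoprotein, a family that includes flocculins. Its CPM was 1.82, 1.86 and 2.79 in haploid MMS and 10.03, 7.25 and 10.7 in diploid MMS, a log2FC of 2.10 (SE 0.38, edgeR adjusted p = 0.0282). No fit that left out an MMS library called it (adjusted p from 0.0634 to 0.152). The related *pfl3+* (SPBC947.04) had 30.4, 34.9 and 36.4 CPM in haploid MMS and 57.3, 61.8 and 47.0 CPM in diploid MMS, a log2FC of 0.71 (edgeR adjusted p = 0.0131). *mam3+* (SPAP11E10.02c), a cell surface adhesin of mating M cells, went the other way, with 176, 159 and 149 CPM in haploid MMS and 108, 88.6 and 74.1 CPM in diploid MMS. Diploid MMS 3 was the lowest of them. The log2FC was -0.84 (SE 0.14, edgeR adjusted p = 0.018). Of 13 flocculin and adhesin genes these 2 rose and 1 fell, with a median of 0.04, or 0.00 without diploid MMS 3. It was 0.05 without both diploid MMS 3 and haploid MMS 1. *mam3+* was also the only member past the adjusted p among the 8 M-cell markers and the 30 genes of mating and entry into meiosis. Most members of these lists leaned the other way, as 6 of the 8 and 23 of the 30 had a log2FC above 0. The list medians were 0.02 and 0.13, and both were 0.01 without diploid MMS 3 and haploid MMS 1.

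Among metabolic genes, *mae2+* (SPCC794.12c), which encodes malic enzyme and so links malate to pyruvate, had a CPM of 159, 172.5 and 193 in haploid MMS. In diploid MMS it was 371, 326.5 and 241, with diploid MMS 3 nearest the haploids. The log2FC was 0.84 (SE 0.17, edgeR adjusted p = 0.0442) and 1 of the 6 fits that left out an MMS library called it. SPAC25B8.12c, annotated as a nucleotide-sugar phosphatase, rose by a log2FC of 0.82 (SE 0.12, edgeR adjusted p = 0.0131), with diploid MMS 3 (52.9 CPM) again below diploid MMS 1 and 2 (70.5 and 70.8). Its haploid values were 38.15, 33.1 and 39.0. SPCC569.07, an aromatic aminotransferase gene, went from 34.5, 36.7 and 33.8 CPM to 49.6, 58.6 and 50.8 CPM (log2FC 0.60, edgeR adjusted p = 0.0298). SPAC5H10.10, an NADPH dehydrogenase gene, just missed the fold threshold at a log2FC of 0.58 (adjusted p = 0.0131), as did *cmt2+*, a catechol methyltransferase gene, at 0.57 (edgeR adjusted p = 0.0333). Of 19 glycolysis and fermentation genes 0 passed in either direction, although 14 had a log2FC above 0 and the median was 0.26. That median was 0.43 without diploid MMS 3 and 0.25 without both libraries. The aldolase gene *fba1+* (SPBC19C2.07) had 1347, 1836 and 1811 CPM in haploid MMS and 3244, 3387 and 1876 in diploid MMS. Diploid MMS 3 was close to the haploids, and the log2FC of 0.77 had an edgeR adjusted p of 0.127 (0.00903 from DESeq2). Without diploid MMS 3 and haploid MMS 1 it was 0.86 (edgeR adjusted p = 0.0305). *tdh1+*, which encodes glyceraldehyde-3-phosphate dehydrogenase, had a log2FC of 0.77 (adjusted p = 0.323), and its groups overlapped. *fba1+* and *tdh1+* were named after their values were seen.

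*hsp90+* (SPAC926.04c, chromosome I from 3888558 to 3891157) encodes the chaperone that folds kinases and other signalling proteins. It had a CPM of 743, 817 and 836 in haploid MMS and 1373, 1263 and 1525 in diploid MMS. Diploid MMS 3 was the highest and haploid MMS 1 the lowest. The log2FC was 0.80 (SE 0.12, edgeR adjusted p = 0.0131), and 0.67 without these 2 libraries (adjusted p = 0.0776). It was the only one of 22 chaperone genes past the adjusted p, with 0 down. The list median was 0.32 with all libraries and 0.09 without both. Relative to the haploid MMS mean, the chaperone median was 0.20 in diploid MMS 1, 0.18 in diploid MMS 2 and 0.59 in diploid MMS 3.

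*ctp1+* (SPCC338.08, chromosome III from 1358737 to 1360260) encodes the CtIP-family factor that starts the resection of DNA double-strand breaks. Its CPM was 252, 232.6 and 227.5 in haploid MMS and 172.5, 149.7 and 151.5 in diploid MMS, with no overlap. The log2FC was -0.59 (SE 0.09, edgeR adjusted p = 0.0131), close to the fold threshold, and 2 of the 6 fits that left out an MMS library called it (adjusted p up to 0.0732). It was the only one of 59 DNA repair genes, and of 14 MBF targets, past the adjusted p. *rad54+* and *srs2+*, of homologous recombination, had log2FC values of 0.09 and 0.29 (adjusted p = 0.794 and 0.438). *cdc1+*, a subunit of DNA polymerase delta, had 311, 328 and 318 CPM in haploid MMS and 276, 258 and 246 in diploid MMS. Its groups did not overlap, but the log2FC of -0.29 had an adjusted p of 0.128. Likewise the spindle checkpoint kinase gene *bub1+* had 402, 375 and 361.5 CPM against 307, 301 and 290.5 (log2FC -0.34, edgeR adjusted p = 0.11). In DESeq2 the adjusted p was 0.0256 for *cdc1+* and 0.012 for *bub1+*, with both short of the fold threshold. Of 49 DNA replication genes and 22 checkpoint genes 0 passed in either direction in edgeR (medians 0.05 and -0.07). The replication median was -0.03 without diploid MMS 3 and -0.0045 without both diploid MMS 3 and haploid MMS 1.

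Several other MBF targets were lowest in the libraries that stood apart, and none of them was called. *cdt1+* (SPBC428.18) had 26.9, 60.2 and 65.0 CPM in haploid MMS and 50.4, 53.0 and 29.4 in diploid MMS. Haploid MMS 1 and diploid MMS 3 were the low ones, and the groups overlapped (log2FC -0.20, adjusted p = 0.794). *cdc22+* (SPAC1F7.05) had 465, 809.6 and 784 CPM in haploid MMS and 645.6, 657 and 398 in diploid MMS (log2FC -0.28, adjusted p = 0.654). *cdc18+* (SPBC14C8.07c) had 41.9, 110.9 and 107.5 CPM against 79.1, 76.9 and 62.3 (log2FC -0.26, adjusted p = 0.742). In all 3 genes haploid MMS 1 was the lowest haploid library and diploid MMS 3 the lowest diploid library. The log2FC of *tos4+*, *ssb1+*, *cdt2+*, *mrc1+*, *cig2+* and *mik1+* lay between -0.33 and -0.02, with no adjusted p under 0.438. As a list, the 14 MBF targets had a median log2FC of -0.13 (-0.04 without diploid MMS 3 and -0.36 without haploid MMS 1) and, in diploid MMS 1, 2 and 3, medians of -0.01, -0.02 and -0.34 relative to the haploid MMS mean. In haploid MMS 1, 2 and 3 these were -0.47, 0.25 and 0.20. Histone genes, which are expressed in S phase, had the same 2 libraries low (-0.47 in diploid MMS 3 and -0.31 in haploid MMS 1). What sets these libraries apart was not tested. In RNA from a whole culture, fewer cells in S phase and less of these mRNAs per S-phase cell cannot be told apart.

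*cut12+* (SPBC649.05), which encodes a spindle pole body protein needed to form the bipolar spindle, had 683, 578 and 568.6 CPM in haploid MMS and 386, 326 and 344 in diploid MMS. The groups lay well apart, with a log2FC of -0.79 (SE 0.12, edgeR adjusted p = 0.0131) that was called in 3 of the 6 fits. The kinetochore gene *cnp3+* moved the other way, from 150, 187 and 167 CPM to 221.5, 232 and 238 CPM (log2FC 0.46, edgeR adjusted p = 0.0346). It did not pass in any fit that left out an MMS library (edgeR adjusted p from 0.0646 to 0.135). With all libraries, *cut12+* and *cnp3+* were the only 2 of 34 spindle and kinetochore genes past the adjusted p. *alp21+*, a tubulin-folding cofactor outside that list, had a log2FC of 0.57 (edgeR adjusted p = 0.0397). Of 25 cell polarity genes *spa2+* and *bud6+*, both of the cell tip, fell and 0 rose. *spa2+* had 316, 366 and 341 CPM in haploid MMS and 250.4, 230.5 and 205.9 in diploid MMS (log2FC -0.58, edgeR adjusted p = 0.0333). *bud6+* had 299.7, 310.3 and 312 CPM against 231, 209.8 and 205.6 (log2FC -0.51, edgeR adjusted p = 0.0131). Both were below the fold threshold.

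The other genes called down have diverse annotations. *gid10+* (SPAP8A3.13c), of a family that in budding yeast recognises substrates of the GID ubiquitin ligase, went from 682, 528 and 530 CPM to 369, 317 and 375.5 CPM, a log2FC of -0.71 (SE 0.12, edgeR adjusted p = 0.018). *yak3+* (SPAC1F7.12), an aldose reductase gene, went from 993.6, 1017 and 978 CPM to 695, 552 and 476 CPM, a log2FC of -0.79 (SE 0.16, edgeR adjusted p = 0.0442). The diploid values of *yak3+* were spread, with diploid MMS 3 the lowest. It was the only one of 14 aldo-keto reductase and aldehyde removal genes past the adjusted p, in a list with a median of -0.23, or -0.13 without haploid MMS 1. That median was -0.27 without diploid MMS 3 and -0.23 without both libraries. SPAC1783.01, a methionine synthase reductase gene, fell by 0.79 on the log2 scale (edgeR adjusted p = 0.0131), with 121, 111 and 98.4 CPM in haploid MMS and 70.2, 58.5 and 61.7 in diploid MMS. SPAC1B3.15c, annotated as a vitamin H (biotin) transporter gene, had 376, 397 and 366 CPM against 268, 264 and 189.8, with diploid MMS 3 the lowest (log2FC -0.66, edgeR adjusted p = 0.0333). SPCC338.18, SPBC30B4.09 and SPCC569.09 are uncharacterized, and their log2FC values were -0.80, -0.81 and -0.87 (adjusted p = 0.0282, 0.0346 and 0.0131 from edgeR). SPCC569.09 had 195, 212 and 219 CPM in haploid MMS and 116, 97.9 and 129.9 in diploid MMS. Of the uncharacterized genes 1 was called up, SPCC569.02c, at 0.96, 1.004 and 1.10 CPM in haploid MMS and 2.72, 4.35 and 2.80 in diploid MMS (log2FC 1.66, SE 0.28, edgeR adjusted p = 0.018).

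Some of these genes lie next to each other. On chromosome II, *aat1+*, *pfl7+* and *abc3+*, a vacuolar ABC transporter gene, are consecutive in the table between 111007 and 127461, and each was higher in diploid MMS. *abc3+* had 75.8, 72.8 and 82.9 CPM in haploid MMS and 108, 113 and 119 in diploid MMS (log2FC 0.56, edgeR adjusted p = 0.0131). On chromosome I, SPAC11D3.01c, a Con-6 family gene, and SPAC11D3.02c, a predicted acetyltransferase gene, lie 633 bases apart on the same strand. Their log2FC values were 0.65 (adjusted p = 0.018) and 0.83 (edgeR adjusted p = 0.0131). SPAC11D3.02c was at 81.1, 100.7 and 112.5 CPM in haploid MMS and 175, 175.5 and 173 in diploid MMS, so its diploid libraries, including diploid MMS 3, were nearly equal. On chromosome III the pair SPCC569.09 and SPCC569.07, which converge with 125 bases between their ends, moved in opposite directions (-0.87 and 0.60). The sources used here do not give the strand setting of the counting, so reads running past the ends of converging genes may be shared between them. Of 137 tested genes within 100 kb of a chromosome end, 5 passed the adjusted p upwards and 1 downwards, where 0.48% and 0.349% of all genes did so. Their median log2FC was 0.19, against 0.01 over all genes, and it was 0.09 without diploid MMS 3 and 0.15 without both diploid MMS 3 and haploid MMS 1. The 5 were SPBPB8B6.02c, SPCC569.02c, SPCC569.07, *cmt2+* and *aah1+* (log2FC 0.56, edgeR adjusted p = 0.018), a gene of a GPI-anchored glycosyl hydrolase, and the 1 was SPCC569.09. Without both diploid MMS 3 and haploid MMS 1 these 5 did not pass (edgeR adjusted p from 0.0649 to 0.121), while SPCC569.09 did (0.0305).

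The other genes past the adjusted p but under the fold threshold were *ecl2+*, a gene of the Ecl family that extends lifespan in this yeast (log2FC 0.51), the kinase gene *ppk31+* (-0.49), the phosphodiesterase gene *pgc1+* (-0.51) and SPCC584.03c, a GTPase regulator gene (-0.36). Some genes under that threshold did not pass without both diploid MMS 3 and haploid MMS 1. They were *cnp3+*, *cmt2+*, *alp21+*, *abc3+*, *aah1+*, *gln1+* and *spa2+* (edgeR adjusted p from 0.0508 to 0.159). The others still passed. *cmt2+* also did not pass in any fit that left out an MMS library (edgeR adjusted p from 0.0634 to 0.162).

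In gene structure the DEGs had mostly single exons. Of the 14 genes up, 13 have 1 exon, as do 8 of the 11 genes down and 51.2% of all genes tested. The median exon length was 2160 bases for genes up, 1480 for genes down and 1863 for all genes. Median CPM over the 6 MMS libraries was 54.1 for genes up, 162 for genes down and 117 for all.

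Short stretches of the DNA before some of these genes are shown because they hold the letters that known transcription factors recognise. The 300 bases before the 5′ end of each RefSeq gene (assembly ASM294v3) were searched on both strands for ACGCGT (the MluI box of MBF), TGACGT (Atf1, the stress factor), GAANNTTC (heat shock factor) and GATAAG (zinc finger factors of nitrogen and iron use). Capitals mark the match, which is in the reverse orientation (CTTATC) for GATAAG here. Each stretch is printed 5′ to 3′ on the strand of the gene.
hsp90 (I:3891178-3891207, minus strand): ttagggttttgGAATGTTCgagttgctttg
mae2 (III:277369-277398, minus strand): ctgggctaatcgTGACGTttggtggttgac
aat1 (II:113631-113660, minus strand): attgcggaccatCTTATCgactttttgtta
SPAC11D3.02c (I:110639-110668, minus strand): aaaaaaaatattCTTATCcttgattaaaag
cdc22 (I:4226906-4226935, plus strand): tgACGCGTctgaACGCGTttttcatttact
tos4 (I:1922452-1922481, plus strand): aaaatcaataaaACGCGTcgcgacgcggct

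The MluI box was in 7 of the 14 MBF target windows, among them *cdc22+* with 2 copies and *tos4+* with 1. It was in 0 of the 14 windows of genes up, 0 of the 11 of genes down, and 2.84% of all 4579 windows. The window of *ctp1+*, the MBF target that fell, held none of these motifs, and neither did those of the other genes called down. The heat shock motif was in 2 of 14 windows of genes up (*hsp90+* and *zrt1+*), against 11.4% of all windows. GATAAG was in 3 of 14 (*hsp90+*, *aat1+* and SPAC11D3.02c), against 11.9%. TGACGT was in 2 of 14 (*mae2+* and SPAC25B8.12c), against 5.87%. A match shows only that the letters are there.

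Without treatment the same strains differed in a similar way at these genes. The NT libraries are others than the MMS libraries, but they are of the same strains, and cultures were split between NT and MMS, so they are no independent test. All 25 DEGs had the same direction in diploid and haploid NT, as did 72.2% of all genes. In NT 24 of the 25 had an adjusted p under 0.05, against 5.69% of all genes, and the other was *pfl3+* (NT log2FC 0.39, edgeR adjusted p = 0.0683). The difference was smaller in MMS than in NT for 12 of the 25, namely 5 of the 14 genes up and 7 of the 11 genes down. The 25 were chosen by their p and fold in MMS, which favours larger values there, so this count is no test. *mae2+* had a log2FC of 1.68 in NT and 0.84 in MMS, *hsp90+* 1.23 and 0.80, and *zrt1+* 1.03 and 0.62. *ptr2+* had 0.71 in NT and 1.22 in MMS, and *nce103+* 0.79 and 1.15.

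**Figure D4:**
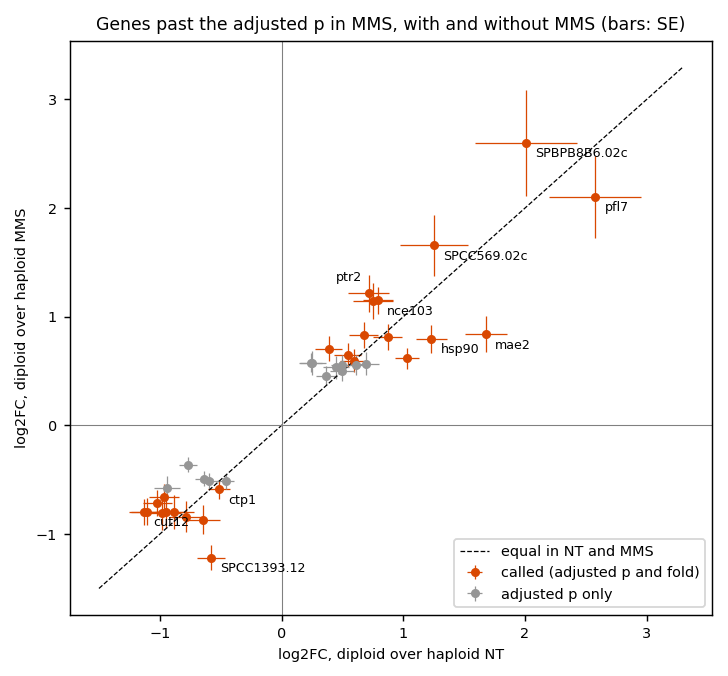
Log2FC of diploid over haploid MMS (y axis) against log2FC of diploid over haploid NT (x axis) for the 38 genes past the adjusted p in MMS, with SE as bars and the dashed line where both are equal. All 38 have the same sign in both, with *mae2+* (0.84 in MMS, 1.68 in NT) below the line and *ptr2+* (1.22 in MMS, 0.71 in NT) above it.

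Whether MMS altered the difference between ploidies was tested by the interaction, the diploid minus haploid log2FC in MMS minus that in NT. edgeR called 0 of 4584 genes (smallest adjusted p 0.999), with 155 at an unadjusted p under 0.05. DESeq2 called 1, SPAC26F1.07, with a difference of -0.75 (adjusted p = 0.042 from DESeq2, unadjusted p = 0.000376 and edgeR adjusted p = 0.999). Its log2FC was 0.34 in NT and -0.42 in MMS. Among the 25 DEGs, 4 had an unadjusted p under 0.05 in edgeR, namely *mae2+*, *hsp90+*, *zrt1+* and SPCC1393.12.

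Lists without a DEG had medians that moved with the libraries that stood apart, some towards 0 without them and some away from it. Of 117 cytoplasmic ribosomal protein genes, 0 passed in either direction, 110 had a log2FC above 0 and the median was 0.16. It was 0.25 without diploid MMS 3, 0.31 without haploid MMS 1 and 0.39 without both. Their medians relative to the haploid MMS mean were 0.23, 0.30 and -0.01 in diploid MMS 1, 2 and 3, and 0.29, -0.14 and -0.15 in haploid MMS 1, 2 and 3, so these groups overlapped. All 31 proteasome genes had a log2FC below 0, with a median of -0.16 and 0 past the adjusted p. That median was -0.06 without diploid MMS 3, which was lowest at -0.37. It was -0.195 without haploid MMS 1 and -0.11 without both. All 32 respiratory chain and ATP synthase genes also lay below 0, with a median of -0.20, and -0.12 without diploid MMS 3. It was -0.20 without haploid MMS 1 and -0.12 without both. Genes of 1 complex are coregulated, so their number adds no replicates. Of 21 antioxidant genes 0 passed in either direction, with a median of -0.17, or 0.00 without haploid MMS 1. The median was -0.17 without diploid MMS 3 and -0.05 without both. In that list *trx1+*, of thioredoxin, had a log2FC of -0.09 (adjusted p = 0.798) and *sod2+*, of mitochondrial superoxide dismutase, -0.47 (adjusted p = 0.193). *yhb1+*, which removes nitric oxide, had 0.37 (adjusted p = 0.481). Phosphate supply genes had the highest list median, 0.40 over 9 genes, which was 0.48 in diploid MMS 3 and -0.03 and 0.05 in diploid MMS 1 and 2. Without diploid MMS 3 it was -0.01, without haploid MMS 1 it was 0.39, and without both it was 0.12. The lowest was that of 18 *wtf* genes, which are similar repeats whose reads may be split, at -0.24, or -0.36 without diploid MMS 3 and -0.12 without haploid MMS 1. The 5 P-cell markers, at 0.33, had a median of 0.74 in diploid MMS 3 against 0.00 and 0.03 in its replicates.

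**Figure D5:**
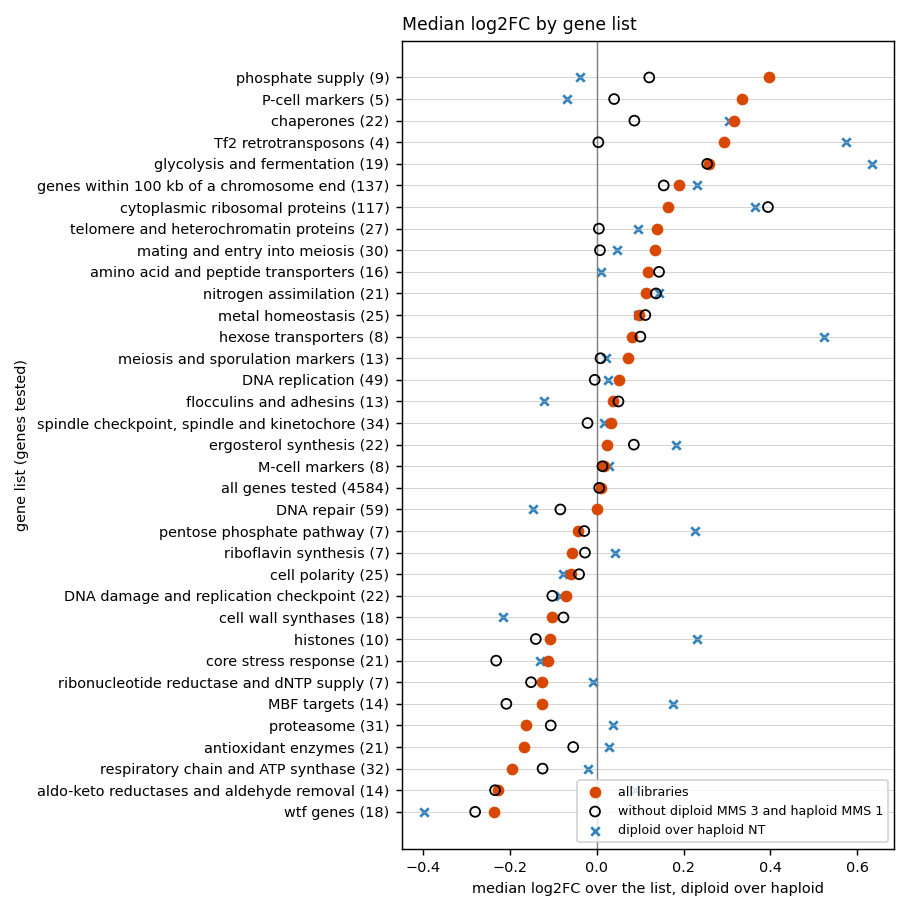
Median log2FC of diploid over haploid MMS (x axis) for each gene list and for all genes tested (y axis, genes tested in brackets), with all libraries (filled circles), without diploid MMS 3 and haploid MMS 1 (open circles), and diploid over haploid NT (crosses). The phosphate list is highest at 0.40 and the *wtf* genes lowest at -0.24, against 0.01 for all genes.

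Per cell, the genes whose share fell had ratios of diploid to haploid above 1. The per-cell ratio was 1.79 for *ctp1+*, 1.55 for *cut12+*, 1.48 for *mam3+* and 1.53 for *yak3+*, against 2.72 for the median gene. At the other end it was 15.9 for SPBPB8B6.02c, 11.7 for *pfl7+*, 6.16 for *ptr2+*, 4.74 for *hsp90+* and 4.74 for *mae2+*. Among the genes named here the lowest ratios were those of *pdr1+*, an ABC transporter gene, at 1.12, *zym1+*, which encodes a metallothionein, at 1.12, and SPCC1393.12, at 1.16. None of them passed the test on that scale (edgeR adjusted p = 0.759, 0.505 and 0.445). *pdr1+* and *zym1+* were named after their values were seen. *zym1+* had 975, 1482 and 1523 CPM in haploid MMS and 722.5, 523.5 and 436 in diploid MMS, without overlap. Its share was not called by edgeR (log2FC -1.24, edgeR adjusted p = 0.0819), although its adjusted p from DESeq2 was 0.00145. For *pdr1+* the value rested on haploid MMS 1, at 323 CPM against 89.6 and 88.3 in its replicates and 67.1 to 74.5 in diploid MMS.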

How the data were processed

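Haploid and diploid *S. pombe* polyadenylated RNA was sequenced in 12 libraries. The deposited values are raw counts per gene (4857 genes and 92 ERCC transcripts), made by the authors with STAR 2.7.0e and featureCounts on a PomBase reference; the sources used here do not give the build, strand setting or featureCounts version. Of the genes, 4855 matched RefSeq and 4842 share a boundary with ASM294v3. Coordinates are those of the deposited table, except for printed sequences (RefSeq, ASM294v3).

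SPAC977.09c and SPBC1348.10c, which share an open reading frame, were left out, as was any gene with 2 or more libraries under 5 reads, and 4584 remained. TMM-normalized counts of all 12 libraries entered the quasi-likelihood test of edgeR 4.0.16 in R 4.3.3, and p values were adjusted by Benjamini-Hochberg across the tested genes. The fit was tested on simulated data. Spike-in factors were medians of ratios over 60 ERCC transcripts counted in every library. Depth was 18079041 to 26493886 counts per MMS library. Alternatives included DESeq2 1.42.0, other filters and scalings, a replicate block and leaving out each library.

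Genes named were those the paper names, the strain markers, the 10 largest and the 10 smallest in adjusted p up and down among DEGs, up to 3 members per list past the adjusted p, and neighbouring genes called. The other genes past the adjusted p were named, after their values were seen, to account for all of them, and any others are marked in the text. The 34 lists and the genes compared were chosen with earlier results of these data known. A further list and motif are not reported here. Values of a list in a library are medians of log2(CPM + 0.5). Columns of all libraries were assigned by their names, and the authors' own fold changes were not used.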

Additional observations from a re-analysis of the deposited data

How the results depend on the processing

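The numbers of DEGs up and down were 14 and 11. They were 41 and 27 with DESeq2, 0 and 0 with only the 6 MMS libraries, 6 and 1 at a log2FC threshold of 1, and 4547 and 0 with spike-in factors, which shift the median gene by 1.44. RLE size factors and other filters on low counts changed neither number by more than 1.5 times. With each MMS library left out in turn, the number up ran from 1 to 19 and the number down from 1 to 11. Some alternatives were chosen after seeing the data: without both diploid MMS 3 and haploid MMS 1, 11 were up and 4 down, and without each NT library in turn the numbers ran from 10 to 26 and from 8 to 20, the highest without haploid NT 1. List members past the adjusted p were 13 up and 7 down, against 29 and 29 with DESeq2, 0 and 0 with only the 6 MMS libraries, 826 and 0 with spike-in factors, and 4 and 3 without both libraries. With each MMS library left out they ran from 0 to 12 up and from 0 to 8 down. The mRNA ratio of 2.67 ran from 2.49 to 2.79 with libraries left out and was 2.74 or less with other spike-in sets. The interaction called 0 genes in edgeR with RLE size factors, with no low-count filter, with a culture block and with any library left out. It called 1 with DESeq2.

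Replicate numbers do not pair the MMS libraries of the 2 ploidies: deviations from the group means of haploid and diploid MMS 1, 2 and 3 correlated at -0.342, 0.371 and -0.301. With the number as a replicate block, 14 genes were up and 10 down. A culture block, by number within a ploidy, gave 0 interaction genes.

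On the spike-in scale each negative log2FC in share became positive, and 4551 of the 4584 genes passed the adjusted p upwards. Of the named genes with a negative log2FC in share, SPCC1393.12 (edgeR adjusted p = 0.445), *zym1+* (0.505) and *pdr1+* (0.759) did not pass. The log2FC was then 1.42 for *ssb1+*, 1.39 for *ade6+*, 1.35 for *tos4+*, 1.33 for *trx1+*, 1.26 for *cdt2+*, 1.30 for *mrc1+*, 1.29 for *cig2+*, 1.20 for *cdt1+*, 1.17 for *cdc18+*, 1.12 for *cdc22+*, 1.13 for *cdc1+*, 1.08 for *mik1+*, *bub1+* and SPCC584.03c, 0.95 for *sod2+* and *ppk31+*, 0.91 for *bud6+*, 0.92 for *pgc1+*, 0.85 for *spa2+*, 0.84 for *ctp1+*, 0.74 for SPAC1B3.15c, 0.72 for *gid10+*, 0.63 for *cut12+* and SPAC1783.01, 0.62 for *yak3+*, 0.65 for SPCC338.18, 0.64 for SPBC30B4.09, 0.57 for *mam3+*, 0.59 for SPCC569.09, 0.22 for SPCC1393.12, 0.17 for *zym1+* and 0.16 for *pdr1+*. On the share scale the sign turned only for genes that were not called, when libraries were left out. Without both diploid MMS 3 and haploid MMS 1, *rad54+* was at -0.092 and *ade6+* at 0.18. With each MMS library left out in turn the log2FC ran from -0.019 to 0.16 for *rad54+*, from -0.12 to 0.033 for *ssb1+*, from -0.093 to 0.11 for *ade6+*, from -0.26 to 0.14 for *tos4+*, from -0.38 to 0.11 for *cdt2+*, from -0.36 to 0.019 for *cig2+* and from -0.50 to 0.025 for *cdt1+*. Of the 25 DEGs the call was lost for 25 with only the 6 MMS libraries, for 3 with the replicate block, for 15 without both libraries and for 5 to 23 with an MMS library left out, all in the same direction. The cause was not tested.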
